A study of Mus musculus with 3 samples.

Results

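The genes described are the AMPA and NMDA receptor subunits Gria1, Gria2, Gria3, Gria4, Grin1, Grin2a and Grin2b, 7 of the 15535 genes listed in at least 1 of 3 single-cell tables of mouse dentate gyrus. They were chosen by name, and each was listed in all 3 tables. Each library was 1 group: a runner library from mice of 8 weeks given a running wheel for 12 days, an aged library from mice of 14 months without a wheel, and a control library from mice of 8 weeks labelled as non-runners. The strain label of every library was hGFAP-eGFP, a reporter driven by the promoter of the human GFAP gene, whereas the design text of the series speaks of wild-type animals and names the reporter with the aged group. The sources used here do not say how many animals were behind a library.

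AMPA and NMDA receptors are ion channels opened by glutamate, the main excitatory transmitter of the brain. AMPA receptors are tetramers of the subunits GluA1 to GluA4, encoded by the Gria genes, and carry the fast current of excitatory synapses. NMDA receptors need the obligatory subunit GluN1, encoded by Grin1, joined by GluN2 subunits such as those of Grin2a and Grin2b, and they admit calcium when the membrane is depolarised. Dentate granule neurons receive their main excitatory input from the entorhinal cortex, and newborn granule neurons acquire that input as they mature.

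The reference coding sequence around the channel pore is given for 6 of the subunits because the codon in capitals takes part in setting how much calcium the channels pass. In the AMPA subunits it is the Q/R site, where the genome encodes glutamine and where the Gria2 transcript is edited to arginine by the enzyme ADAR2. In the NMDA subunits it is the asparagine at the N site, which takes part in the magnesium block. Capitals mark the codon, and the sequences are from the GENCODE M21 transcripts of GRCm38, 5′ to 3′ on the coding strand.
Gria1: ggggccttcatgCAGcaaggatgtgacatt
Gria2: ggtgcctttatgCAGcaaggatgcgatatt
Gria3: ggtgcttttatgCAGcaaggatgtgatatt
Gria4: ggtgcctttatgCAAcaaggatgtgacatt
Grin1: ggcgtcctgctcAACtctggcattggggaa
Grin2a: ggcctggtcttcAACaattctgtgcccgtc

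The Gria1 stretch lies in exon 11 at chr11:57243082-57243111 on the plus strand, and the Gria2 stretch in exon 11 at chr3:80706896-80706925 on the minus strand. Those of Gria3 (exon 11, chrX:41610253-41610282, plus strand) and Gria4 (exon 12, chr9:4464122-4464151, minus strand) are coding exon sequence as well. The Grin1 stretch is in exon 14 at chr2:25297371-25297400, and that of Grin2a in exon 10 at chr16:9653546-9653575, both on the minus strand. Gria2 and Gria3 were identical at 28 of the 30 bases, whereas Gria1 shared 26 with Gria2 and 26 with Gria3. All 3 glutamine codons of Gria1, Gria2 and Gria3 were CAG, and that of Gria4 was CAA. The libraries counted tags near the 3′ end of transcripts, so neither editing at this site nor splice forms were measured. Grin1 overlaps the antisense gene Grin1os, and Grin2b overlaps Gm14329, Gm14330 and Gm26653 on the other strand. None of these 4 overlapping genes was listed in any of the tables, and the sources used here do not say whether counting used the strand. Whether antisense reads have a part in the Grin1 and Grin2b counts was not tested.

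The runner, aged and control tables held 3328, 2421 and 2356 cell barcodes with 3808360, 2537567 and 2330698 unique molecular identifiers (UMIs), each standing for 1 captured transcript. Barcodes with at least 200 genes and under 10% mitochondrially encoded UMIs, after removal of called doublets, gave 963 runner, 391 aged and 512 control cells. Between 8 and 10 barcode sequences were shared by any pair of libraries. Clusters were formed without the 7 subunits and 4 lists of related genes, and were named from other markers, so every class name below means "like" that type. The 7 classes held 103 granule neurons, 215 neuroblasts (immature neurons), 154 Cajal-Retzius cells, 240 astrocytes, 74 oligodendrocyte precursor cells (OPCs), 209 oligodendrocytes and 799 microglia. The aged library gave few neurons, with 14 granule neurons and 12 neuroblasts, against 31 granule neurons and 32 neuroblasts in control, while the runner library gave 58 and 171. In the granule class all 11 granule neuron markers were detected, and 7 of 8 Cajal-Retzius markers, Reln among them, were at 0. Of 4 listed pyramidal neuron markers 3 were detected there, at a sum of 38.2 CPM in runner and 34.6 in aged, against 83.0 in control, with Neurod6 at 0. Of 9 listed GABAergic neuron markers 6 were detected, at 248 CPM in runner and 138 in aged, against 133 in control, with Sst, Pvalb and Dlx6os1 at 0. The part of other neurons in the granule class values was not tested. The Cajal-Retzius class held all 8 of its own markers, which summed to 6395 CPM in runner and 6858 in aged, against 6220 in control. It also held 10 of the 11 granule neuron markers, at a sum of 7625 CPM in runner and 9180 in aged, against 7265 in control, with C1ql2 at 0. Levels are given as CPM, the UMIs of a gene per 1000000 UMIs of 1 class in 1 library, with 95% Poisson intervals that cover counting error only. Since 3′ tags do not scale with transcript length, CPM was not scaled by gene length.

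Granule neurons held the highest mean CPM of 6 of the 7 subunits, and Gria4 was highest in OPCs. Gria2, whose edited subunit makes AMPA receptors impermeable to calcium, was the most abundant of the 7 in every class except microglia of the aged library, where it was at 0, and oligodendrocytes of the aged library, where all 7 were at 0. It had 2200 CPM in runner granule neurons and 1971 in aged granule neurons, against 1611 in control granule neurons. Astrocytes followed with 1127 CPM in runner and 1887 in aged, against 1162 in control, so the ranges of granule neurons and astrocytes overlapped. OPCs had 645 CPM in runner and 969 in aged, against 603 in control, and neuroblasts had 652 and 700 against 749. Cajal-Retzius cells had 391 CPM in runner and 688 in aged, against 408 in control. The ranges of OPCs and neuroblasts overlapped, as did those of neuroblasts and Cajal-Retzius cells. Oligodendrocytes had 179 CPM in runner, 0 of 73982 UMIs in aged and 226 CPM in control, and microglia had 13.8, 0 and 5.56 CPM.

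**Figure D1:**
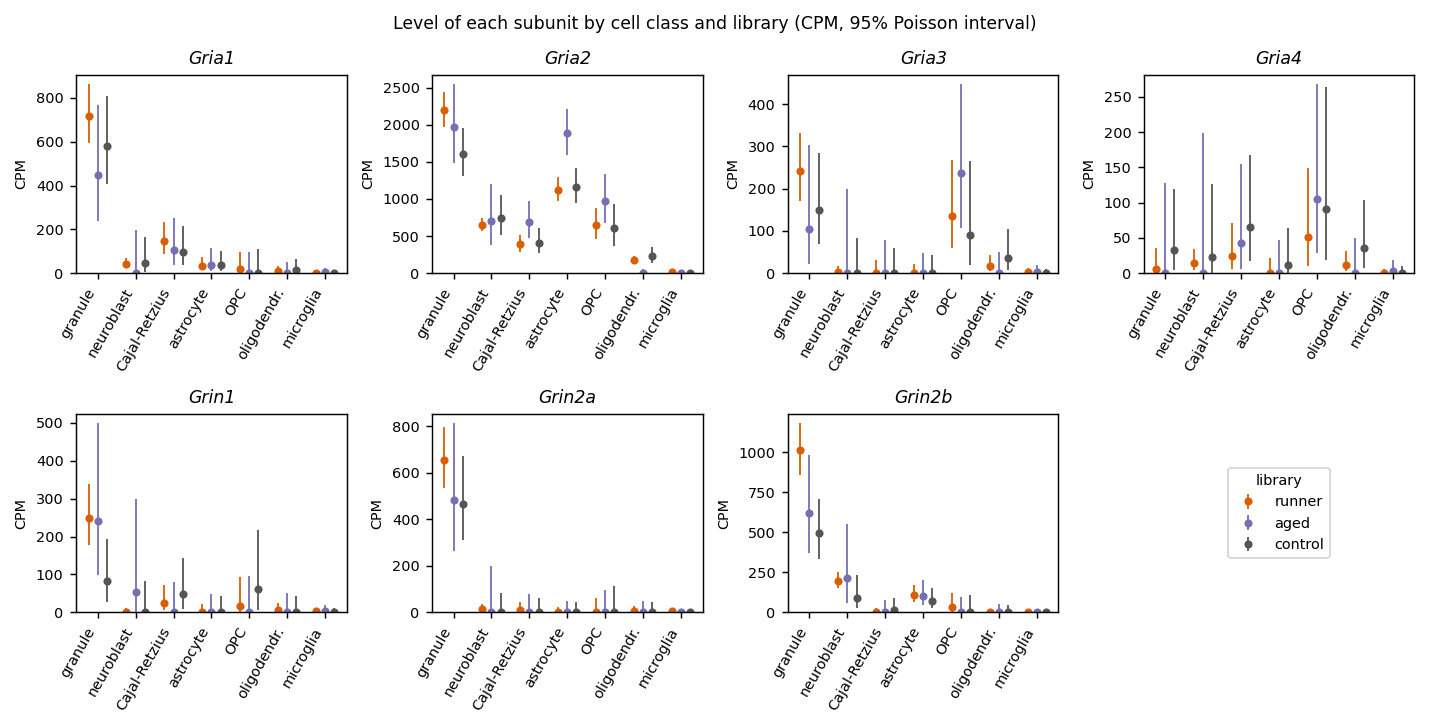
CPM of each subunit (linear axis from 0, own scale per panel) in 7 cell classes, with 1 point per library (runner, aged, control) and bars for 95% Poisson intervals of counting error. By the mean of the 3 libraries granule neurons led for every subunit except Gria4, and astrocyte Gria2, at 1127 to 1887 CPM, reached into the granule range of 1611 to 2200 CPM.

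Gria2 was detected in 57 of 58 runner, 13 of 14 aged and 27 of 31 control granule neurons, and in 93 of 124 runner, 44 of 52 aged and 45 of 64 control astrocytes. Microglia were taken as a class assumed to lack the gene, and 7 of 354 runner, 0 of 201 aged and 2 of 244 control microglia held a Gria2 UMI. The source of these UMIs, such as free RNA, was not tested. The median depth was 2824, 1613 and 1819 UMIs per granule neuron, 1305, 1226 and 1303 per astrocyte and 1583, 1408 and 1477 per microglial cell in runner, aged and control.

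The order of the classes differed between subunits, with means ± SD over the 3 libraries, which differ in condition. Gria1 averaged 583 ± 135 CPM in granule neurons, 117 ± 25.8 in Cajal-Retzius cells and 35.7 ± 2.43 in astrocytes (SD, n = 3 each), and these ranges did not overlap. Grin2b averaged 711 ± 268 CPM in granule neurons, 168 ± 67.2 in neuroblasts and 93.3 ± 21.2 in astrocytes, where the ranges of neuroblasts and astrocytes overlapped. Gria4 averaged 82.1 ± 27.9 CPM in OPCs and 44.2 ± 20.5 in Cajal-Retzius cells, with ranges that overlapped. Grin1 averaged 191 ± 93.6 CPM in granule neurons, and Grin2a 535 ± 105.

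Classes were compared with edgeR's quasi-likelihood test on UMIs summed per class and library, with the library as a block and each library as 1 replicate, although the libraries differed in condition. P-values were adjusted by Benjamini-Hochberg over the 2923 genes tested, and a gene was called at an adjusted p under 0.05. Because the library was a block, the p-values measure the spread left among the class sums after library and class differences. That spread was estimated largely from all genes together (median prior degrees of freedom 207). Variation between animals, which are not described, was not measured. Gria4 and Grin1 had too few UMIs for this fit. A log2 difference is given only where each class held more than 3 UMIs of the gene over the 3 libraries. For the remaining subunits the cells of each side were summed per library, a fit added after seeing the data. In both fits a subunit high in a single class or side could pass the filter on low counts, which partly sets its direction. Counts of subunits that rose therefore describe the subunits tested.

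In neurons against glia Gria2 was higher by 1.84 ± 0.15 on the log2 scale (SE, edgeR adjusted p = 7.2e-25), in a comparison in which 52.7% of genes were called and 25% were called higher. Leaving out the newly formed oligodendrocytes described below gave 2.43, and requiring 500 genes per cell gave 2.55. In the summed fit, where 51.4% of 7558 genes were called and 23.2% were called higher, 6 subunits rose and Gria4 was not among the genes tested. The rise of Gria3 was called in this fit alone, 1 of 14 settings, and the class fit gave it no call (edgeR adjusted p = 1). Grin1 was called in 1 of 3 settings (edgeR adjusted p up to 0.078), Grin2a in 15 of 16 and Grin2b in 14 of 16. Grin2a was higher in neurons by 5.42 ± 0.41 (edgeR adjusted p = 1.5e-34), with 172 CPM over all neurons against 2.80 over all glia. Gria1 was higher by 4.29 ± 0.32 (edgeR adjusted p = 2.4e-35), with 234 CPM against 8.86. Grin2b was higher by 3.72 ± 0.28 and Grin1 by 3.68 ± 0.48. Gria2 and Gria3 differed least between these sides, by 1.39 ± 0.16 and 1.56 ± 0.38. Of the neuronal UMIs in these sums, 145 of 151 for Grin2a and 50 of 51 for Gria3 were in granule neurons. Most of the 58 for Grin1 were there too. Grin2a averaged 4.90 CPM in neuroblasts and 2.72 in Cajal-Retzius cells, near the 2.66 of microglia and 2.38 of oligodendrocytes. The summed differences of Grin2a, Gria3 and Grin1 therefore describe mainly granule neurons and not every neuronal class.

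Maturation in the granule lineage was compared as granule neurons against neuroblasts, where 41.7% of all genes were called and 23.3% were called higher. All 4 subunits with a defined difference rose in granule neurons. Of 157 Grin2a UMIs in the cells used 145 were in granule neurons, and of 225 Gria1 UMIs 161 were. The limit of the filter given above therefore holds for these subunits. Grin2a, the GluN2 subunit known to increase with postnatal maturation, was higher by 5.76 ± 0.50 on the log2 scale (SE, edgeR adjusted p = 2.6e-22). It had 655 CPM in runner and 484 in aged granule neurons, against 465 in control granule neurons, and 14.7, 0 and 0 CPM in the neuroblasts of runner, aged and control. The neuroblast value rested on 5 UMIs, all in the runner library, so without that library no difference can be given. Under 5% mitochondrially encoded UMIs the difference was 5.07. Gria1, whose product is the AMPA subunit most tied to activity-dependent insertion at synapses, was higher by 4.20 ± 0.38 (edgeR adjusted p = 4.0e-21). Gria1 had 719 CPM in runner and 449 in aged granule neurons, against 581 in control granule neurons, and 41.1, 0 and 45.4 CPM in the neuroblasts of the 3 libraries. Grin2b, the GluN2 subunit known to dominate early, was higher by 2.42 ± 0.26 (edgeR adjusted p = 8.8e-16), and Gria2 by 1.64 ± 0.21 (edgeR adjusted p = 1.6e-12). These 4 subunits were called under all 16 settings run, the main one included. Some settings were no separate check here. The finer clustering gave the same 1218 calls, and leaving out newly formed oligodendrocytes changed neither class. Summing each side left the counts of both classes unchanged as well. Gria3 held 50 UMIs in granule neurons and 1 in neuroblasts, and Grin1 held 51 and 1.

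The subunit makeup differed along with the levels. Of 291 AMPA subunit UMIs in neuroblasts, 92.1% were Gria2 and 5.50% were Gria1, with an exact Clopper-Pearson 95% interval of 3.18 to 8.78% for Gria1. Of 714 in granule neurons, 70.0% were Gria2, 22.5% Gria1 (19.5 to 25.8%) and 7.00% Gria3. The Gria1 intervals of both classes, with the 3 libraries together, did not overlap. They cover counting error only, and the neuroblast UMIs were mostly from runner. Gria1 held 14 UMIs in runner, 0 in aged and 2 in control neuroblasts, and Gria2 held 222, 13 and 33. Shares within aged or control neuroblasts therefore rest on few UMIs. The Gria1 share was 22.7% in runner, 17.8% in aged and 24.5% in control granule neurons. Grin2b made up 75 of 80 Grin2a plus Grin2b UMIs in neuroblasts (93.8%), and 207 of 352 in granule neurons (58.8%). Of the 75 in neuroblasts 67 were from runner, 4 from aged and 4 from control. At a finer clustering a subset of 32 neuroblasts had 155 CPM of Gria2 (interval 74.3 to 285), and the other 183 had 762 CPM (interval 672 to 861).

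**Figure D2:**
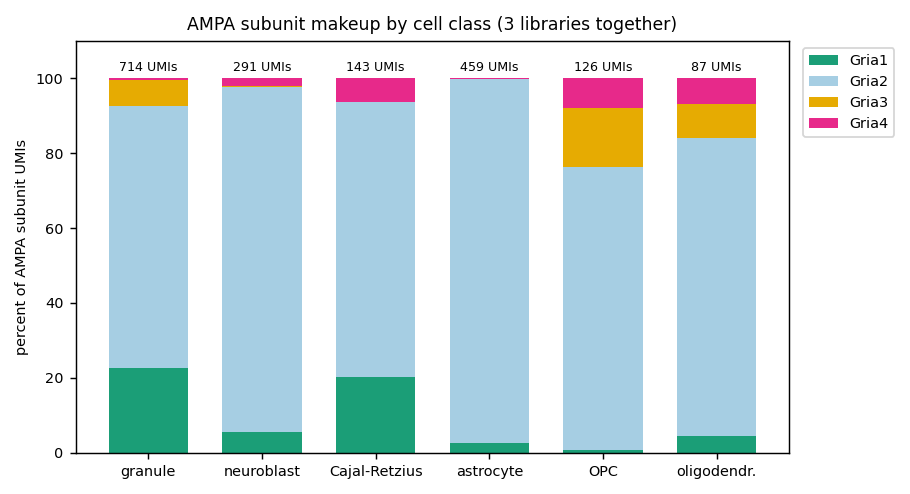
Stacked bars give the percent of Gria1, Gria2, Gria3 and Gria4 UMIs among all AMPA subunit UMIs of a class, with the 3 libraries together and the number of UMIs above each bar. Gria1 made up 22.5% in granule neurons and 5.50% in neuroblasts, and Gria2 made up 97.2% in astrocytes.

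Cajal-Retzius cells, reelin-secreting neurons that persist at the edge of the adult dentate gyrus, held AMPA subunit transcripts but few of Grin1, Grin2a and Grin2b. A UMI of any AMPA subunit was found in 42 of 73 runner, 22 of 32 aged and 25 of 49 control cells. A UMI of Grin1, Grin2a or Grin2b was found in 4 of 73 runner, 0 of 32 aged and 4 of 49 control cells, or 5.19% of all 154 (Clopper-Pearson interval 2.27 to 9.98%). The median depth was 1620, 1481 and 1243 UMIs per Cajal-Retzius cell and 1979, 1451 and 1380 per neuroblast in runner, aged and control. In neuroblasts such a UMI was found in 52 of 171 runner, 5 of 12 aged and 4 of 32 control cells, or 28.4% of all 215 (22.5 to 34.9%), most of them runner cells. The control share of 12.5% of neuroblasts (3.51 to 29.0%) overlapped that of 8.16% of control Cajal-Retzius cells (2.27 to 19.6%). In granule neurons the share was 100% in runner and 85.7% in aged, against 74.2% in control. In microglia such a UMI was found in 8 of 799 cells. With the 3 libraries together this interval lay below that of Cajal-Retzius cells. Within each library the intervals of microglia and Cajal-Retzius cells overlapped. They were 0.46 to 3.27% and 1.51 to 13.4% in runner, and 0.013 to 2.74% and 0 to 10.9% in aged. In control they were 0.099 to 2.93% and 2.27 to 19.6%. Over all Cajal-Retzius cells Grin1 held 6 UMIs, Grin2a 1 and Grin2b 1, and Gria3 was at 0 in all 3 libraries. Against the other neurons, where 25.7% of all genes were called and 10.9% were called lower, Gria2 fell by 1.32 ± 0.21 on the log2 scale (edgeR adjusted p = 2.5e-08). Gria1 differed by -0.30 ± 0.39, which was not called (edgeR adjusted p = 0.64). With the cells of each side summed, where 36.3% of genes were called and 17.8% were called lower, the Gria1 difference was -1.16 ± 0.32 (edgeR adjusted p = 0.0016). Gria1 in these cells was 147 CPM in runner and 107 in aged, against 98.0 in control, and made up 20.3% of their AMPA subunit UMIs. Gria4 held 9 UMIs, 6.29% of these AMPA subunit UMIs, and 3 of 714 in granule neurons (0.42%).

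**Figure D3:**
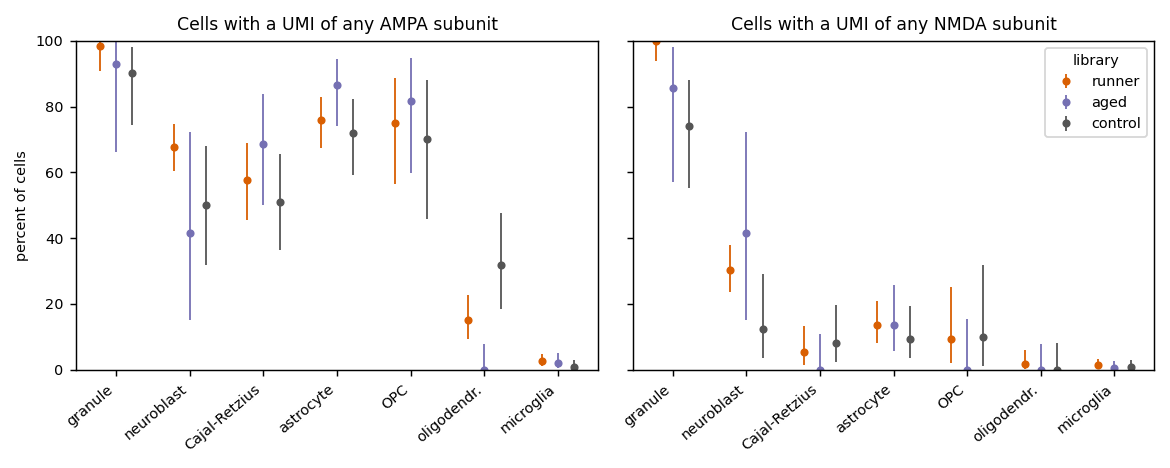
Percent of cells of each class with a UMI of any AMPA subunit (left) and of Grin1, Grin2a or Grin2b (right, titled any NMDA subunit), 1 point per library with Clopper-Pearson 95% intervals. Cajal-Retzius cells, astrocytes and OPCs lay at 51.0 to 86.5% for AMPA subunits and at 0 to 13.7% for the 3 NMDA subunits.

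Astrocytes, the support cells that clear glutamate from synapses, expressed Gria2 nearly alone among the AMPA subunits. Of their 459 AMPA subunit UMIs 446 were Gria2 (97.2%), 12 were Gria1, 1 was Gria4 and none was Gria3. Gria1 had 34.1 CPM in runner and 38.5 in aged astrocytes, against 34.5 in control astrocytes. Of Grin1, Grin2a and Grin2b, astrocytes held Grin2b, with 108 CPM in runner and 103 in aged, against 69.0 in control. Grin1 and Grin2a were at 0 in the astrocytes of all 3 libraries, which allows up to 17.1 CPM in runner and 38.5 in aged, against 34.5 in control. Against oligodendrocytes and microglia, where 51.9% of genes were called and 24.3% were called higher, Gria2 rose in astrocytes by 5.00 ± 0.22 (edgeR adjusted p = 1.8e-58). The difference was 4.41 without the aged library, 5.95 without the runner library, 6.16 without the newly formed oligodendrocytes and 6.23 with at least 500 genes per cell. A finer clustering split the astrocytes into 167 cells with 1416 CPM of Gria2 and 72.9 CPM of Grin2b, and 73 cells with 1080 and 149 CPM. The Gria2 intervals were 1267 to 1577 and 893 to 1296 CPM and overlapped. The leading genes of the 73 cells included Fabp7, Ptprz1 and the neural stem cell marker Hopx. Of these cells 46 were from runner, 10 from aged and 17 from control. All 7 neural stem cell markers were detected in the astrocyte class, at 2293 CPM in runner and 1990 in aged, against 1530 in control. The part of stem-like cells in the astrocyte values and group ratios was not tested. Granule neuron markers summed to 125 CPM in runner and 295 in aged astrocytes, against 288 in control astrocytes, and to 8693, 9127 and 7872 CPM in the granule neurons of the 3 libraries.

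OPCs, the dividing precursors of oligodendrocytes and the glia known to receive synapses from neurons, held Gria2, Gria3 and Gria4. Of 126 AMPA subunit UMIs 75.4% were Gria2, 15.9% Gria3, 7.94% Gria4 and 0.79% Gria1. Gria3 had 136 CPM in runner and 236 in aged OPCs, against 90.5 in control OPCs, a range that overlapped that of granule neurons with 242, 104 and 149 CPM. Gria4 had 50.9 CPM in runner and 105 in aged OPCs, against 90.5 in control OPCs, from 10 UMIs in all. Against the other glia, where 29.9% of genes were called and 15.9% were called higher, Gria2 was higher by 2.01 ± 0.25 (edgeR adjusted p = 2.4e-12). It was 2.67 without TMM factors, 2.74 without the newly formed oligodendrocytes, 2.98 at a coarser clustering and 3.22 with at least 500 genes per cell. With the sides summed it was 0.90 ± 0.20 (edgeR adjusted p = 0.00098), with 729 CPM in OPCs against 261 in all other glia. In that fit, where 36.2% of genes were called and 13.1% were called higher, Gria3 was higher in OPCs by 4.18 ± 0.54 (edgeR adjusted p = 1.3e-06) and Gria4 by 3.58 ± 0.66 (edgeR adjusted p = 0.00013). The other glia held 11 UMIs of Gria3 and 8 of Gria4, or 5.46 and 3.97 CPM, against 154 and 76.8 CPM in OPCs. Both genes could pass the filter on low counts through the OPCs, which partly sets their direction. Of the NMDA subunits Grin1, Grin2a and Grin2b, OPCs held 3 UMIs of Grin1 and 2 of Grin2b, in 5 of 74 cells.

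Within the oligodendrocyte class, which did not include the OPCs, Gria2 was found mainly in the newly formed cells, named from markers of that stage. The 10 leading genes of the cluster held 2 markers of that stage, Enpp6 and Neu4, and as many markers of mature oligodendrocytes. The cluster held 17 cells, 10 from runner, none from aged and 7 from control. Gria2 had 1349 CPM in its runner cells, against 744 in its control cells, and was detected in 14 of the 17. In the 192 mature oligodendrocytes it had 32.1 CPM in runner and 0 in aged, against 62.6 in control, and was detected in 11 of 192. Gria3 held 8 UMIs in the newly formed cells and none of 386807 UMIs in the mature cells, which allows up to 7.76 CPM. Since no newly formed cell came from the aged library, the zero of Gria2 in aged oligodendrocytes compares mature cells with a mixture. The median depth was 3265 UMIs in newly formed cells, against 1941 in mature cells, and its part in the detected shares was not tested.

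The question of running and of age was asked within classes. With 1 library per group no test was possible, and values carry counting error only. In both comparisons the control library is the same one. Over the 3 neuronal classes at equal weight, the 7 subunits summed to 2199 CPM in runner and 1893 in aged, against 1655 in control. The runner to control log2 ratio was 0.41 (95% counting interval 0.22 to 0.60) and the aged to control log2 ratio was 0.19 (-0.09 to 0.48). The runner ratio was 0.15 (-0.04 to 0.34) when all neuronal cells were summed and 0.19 (-0.08 to 0.46) under 5% mitochondrially encoded UMIs.

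In granule neurons the 6 subunits with at least 20 UMIs had ratios of 1.24 to 2.99 in runner against control. The median log2 ratio of all 2092 genes with at least 20 UMIs was -0.036. The share of these genes with a ratio above 1 was not taken, and all ratios come from the same pair of libraries. Grin1 had 248 CPM in runner, against 83.0 in control, a ratio of 2.99 (1.18 to 9.71) that rests on 5 UMIs in the control library. Grin2b had 1011 CPM in runner, against 498 in control, a ratio of 2.03 (1.37 to 3.11), and Gria2 had a ratio of 1.37 (1.09 to 1.73). Gria3 with 1.62, Grin2a with 1.41 and Gria1 with 1.24 had intervals that held 1. Past 1.5-fold higher lay 3 of the 6, Grin1, Grin2b and Gria3, while 16.3% of all 2092 genes with at least 20 UMIs in the class did. The log2 ratio of Grin2b, 1.02 as given, was 0.29 under 5% mitochondrially encoded UMIs, and that of Gria3 was -0.31, below 0. The runner granule neurons were deeper, at 2824 UMIs per cell, against 1819 in control. After thinning each cell to 1000 UMIs, Grin2b was detected in 67.3% of 55 runner cells, against 41.7% of 24 control cells, and in 91.4% and 51.6% before thinning. C1ql2, a marker of mature granule neurons, had 318 CPM in runner granule neurons, against 149 in control, and the summed granule neuron markers had 8693 CPM in runner, against 7872 in control. The part of depth and of the maturity of the cells in these ratios was not tested.

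In the other classes the runner ratios of Gria2 were 0.87 in neuroblasts (0.60 to 1.30), 0.96 in Cajal-Retzius cells (0.58 to 1.62), 0.97 in astrocytes (0.76 to 1.24), 1.07 in OPCs (0.61 to 1.94) and 0.79 in oligodendrocytes (0.46 to 1.42). All 5 intervals held 1, and the share of all genes for which this holds was not taken. In Cajal-Retzius cells, OPCs and oligodendrocytes Gria2 did not lie past 1.5-fold either way, while 26.5%, 30.6% and 29.9% of genes did. In neuroblasts and astrocytes it did not lie past 1.5-fold higher, while 21.5% and 17.1% of genes did. Grin2b had 197 CPM in runner neuroblasts, against 90.8 in control, and its ratio of 2.17 (0.81 to 8.18) rested on 4 control UMIs, where 21.5% of genes lay past 1.5-fold higher. In astrocytes its ratio was 1.57 (0.60 to 4.79), where 17.1% did.

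In aged against control, Gria2 in astrocytes had 1887 CPM in aged, against 1162 in control, a ratio of 1.62 (1.25 to 2.11). The summed astrocyte markers had 23137 CPM in aged astrocytes, against 24103 in control. Among the genes of that class 13.3% lay past 1.5-fold higher. The log2 ratio, 0.70 as given, was 1.24 under 5% mitochondrially encoded UMIs and 0.16 with no mitochondrial filter. Without that filter 2 clusters named astrocyte, of 1447 and 703 barcodes, had 1 astrocyte marker each among their 10 leading genes, beside Hpcal4, Kif5a and mitochondrially encoded genes, so the astrocytes of that setting differ from those described above. Gria2 had a ratio of 1.69 (0.97 to 2.97) in Cajal-Retzius cells and 1.61 (0.91 to 2.92) in OPCs, where 13.2% and 12.2% of genes lay past 1.5-fold higher, and both intervals held 1. In granule neurons the aged ratios were 1.22 for Gria2, 0.77 for Gria1, 1.04 for Grin2a and 1.25 for Grin2b, all with intervals that held 1, from 14 aged cells. None of the 4 lay past 1.5-fold, against 33.3% of genes of the class. Gria2 in aged neuroblasts had a ratio of 0.93 (0.45 to 1.82), where 30.5% of genes lay past 1.5-fold. Thinning turned the log2 ratio of Gria2 in granule neurons to -0.41, against 0.29 unthinned. After thinning to 1000 UMIs, Gria2 was detected in 80.0% of 35 aged astrocytes, against 55.1% of 49 control astrocytes, and in 84.6% and 70.3% before thinning.

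**Figure D4:**
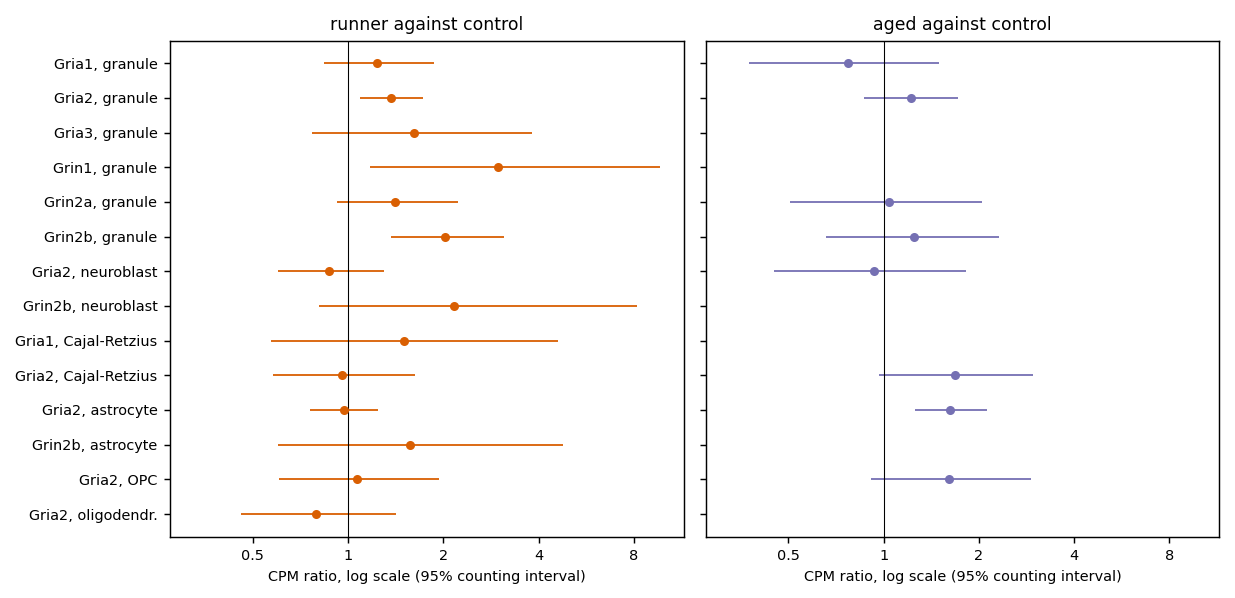
CPM ratio on a log axis with exact 95% counting intervals, runner against control (left) and aged against control (right), for subunits with at least 20 UMIs in both libraries of a class together, so a row may have a point on one side alone. Grin2b in runner granule neurons stood at 2.03 (1.37 to 3.11) and Gria2 in aged astrocytes at 1.62 (1.25 to 2.11).

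Partner genes of the receptors were taken from 4 lists. Of 22 AMPA receptor auxiliary and partner genes 6 could be tested, and in neurons against glia 5 rose (Nrn1, Nptx1, Olfm1, Nptxr and Cnih2) and 1 fell (Cacng4), where 25% of all genes were called higher and 27.6% lower. Their median log2 difference was 2.99, and 3.02 with genes at or near 0 in a class set to the floor of 3 UMIs, beside -0.08 over all genes. A gene high in a single class could pass the filter on low counts, which partly sets its direction. These counts therefore describe the genes tested and not the whole list. Nrn1, which encodes the small surface protein neuritin, was higher by 3.72 ± 0.25 and Olfm1, which encodes a secreted glycoprotein found with AMPA receptors, by 3.22 ± 0.23. The neuronal pentraxin genes Nptx1 and Nptxr, whose products cluster AMPA receptors, had 528 and 611 CPM in runner granule neurons and 553 and 173 in aged, against 448 and 249 in control. Cnih2, a cornichon that slows AMPA receptor closing, had 184 CPM in runner and 138 in aged granule neurons, against 183 in control. Cacng4, a transmembrane regulatory protein of AMPA receptors, was found almost only in OPCs, with 509 CPM in runner and 734 in aged, against 543 in control, and 0 in all granule neurons. It was the 1 gene of the 6 that rose in OPCs against other glia, where 15.9% of all genes were called higher, a share like that of the list.

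Of 34 scaffold and trafficking genes 12 could be tested, 8 rose in neurons against glia and 1 fell, where 25% of all genes were called higher and 27.6% lower, with a median log2 difference of 1.19 (1.31 with the floor). The same limit of the filter holds for counts among these 12. Camk2b, a calcium-dependent kinase subunit of the synapse, was higher by 2.37 ± 0.30, Nsf, which binds the AMPA subunit GluA2, by 1.84 ± 0.37, Shank1, a postsynaptic scaffold, by 1.61 ± 0.25 and Dlg4, the scaffold PSD-95, by 1.41 ± 0.33. Nrgn, a postsynaptic calmodulin-binding protein, rose as well, with 1698 CPM in runner and 1487 in aged granule neurons, against 1329 in control. Camk2d fell. In granule neurons against neuroblasts 11 of the 12 rose, where 23.3% of all genes were called higher. In Cajal-Retzius cells against other neurons 5 of the 12 fell (Dlgap1, Nrgn, Ppp3ca, Camk2b and Camk2a), where 10.9% of all genes were called lower. In OPCs against other glia, where 15.9% of all genes were called higher, 4 of the 12 rose, the adhesion genes Lrrtm3 and Nlgn3, the scaffold gene Dlgap1 by 2.34 ± 0.38 and Camk2b by 1.66 ± 0.60. Lrrtm3 had 170 CPM in runner and 236 in aged OPCs, against 211 in control OPCs, and Nlgn3 had 254 and 262, against 90.5.

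Of 11 metabotropic receptor and Homer genes only Grm5 could be tested. It rose in granule neurons against neuroblasts by 5.32 ± 0.55 and in OPCs against other glia, with 369 CPM in runner and 346 in aged granule neurons, against 498 in control, and 221 and 105 in runner and aged OPCs, against 151 in control. In neurons against glia it was not called (edgeR adjusted p = 0.73). None of the 13 other ionotropic receptor genes had enough UMIs for the test.

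Genes most like a subunit over the 21 class-by-library sums, by Pearson's r of log2(CPM + 20) among 4704 genes, included Epha7 (0.94) and Nptxr (0.92) for Gria1. They were Plcb1 (0.95), Tnik (0.94) and Sgip1 (0.94) for Gria2, Rasl10a (0.97), the row named Rit1.1 (0.97) and Fam163b (0.97) for Grin2a, and Lgi1, Higd2a and Chn1 (0.91 each) for Grin2b. The 21 sums share 3 libraries and differ in depth, and these values are a description.

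**Figure D5:**
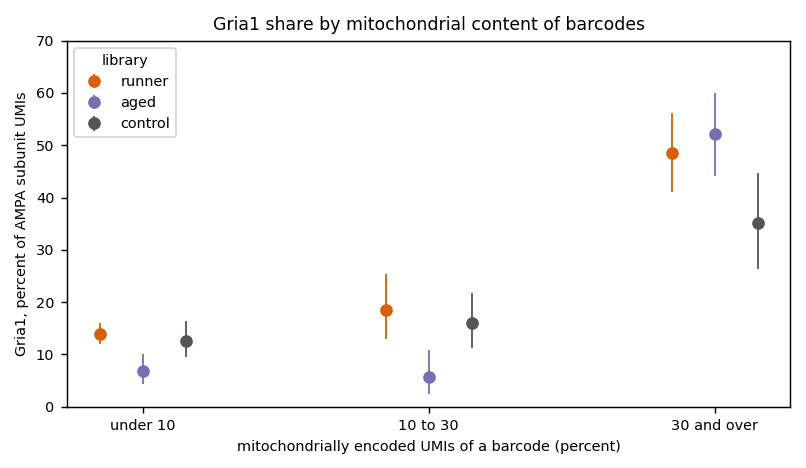
Gria1 as percent of all AMPA subunit UMIs in barcodes grouped by their mitochondrially encoded UMIs, 1 point per library with Clopper-Pearson 95% intervals. At 30% and over the share was 48.6% in runner and 52.1% in aged, against 35.1% in control, and under 10% it was 13.8% in runner and 6.85% in aged, against 12.6% in control.

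The filter on mitochondrially encoded UMIs set aside barcodes in which the AMPA makeup was different. In the 5314 barcodes with 30% and over, Gria1 made up 211 of 453 AMPA subunit UMIs (46.6%) and Gria2 42.8%, whereas in the 1919 barcodes under 10% Gria1 made up 12.3% and Gria2 81.2%. In granule neurons of the cells used the Gria1 share was 22.5%. The 872 barcodes between 10 and 30% had 13.9% Gria1 and 80.8% Gria2. The median barcode of the richest range held 382 UMIs that were not mitochondrially encoded, against 1534 under 10%.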

How the data were processed

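Single-cell suspensions of trypsin-digested dentate gyrus were made into 10x Chromium 3′ libraries, per the labels' protocols. The authors deposited raw UMI counts per gene and barcode, 1 table per library, which are whole numbers and not normalized. Cell Ranger 2.1.1, Seurat 3.1.0 and the build GRCm38 were used, per the submitters' processing notes, and the sources used here do not name the cell-calling rule. The deposited counts were filtered (at least 200 genes, under 10% mitochondrially encoded UMIs), doublets were called per library with Scrublet at a rate of 0.05, which removed 6 runner, 2 aged and 2 control barcodes, and the rest were clustered together with Scanpy 1.11.5 and leidenalg 0.10.2 (2000 variable genes, 30 components, 15 neighbours, resolution 1). The 7 subunits and the genes of the 4 lists found in the tables, 82 in all, were held out of clustering. Clusters were named from 23 marker lists. Newly formed oligodendrocytes were counted with oligodendrocytes. Of 1866 cells 1794 fell in the 7 classes, the other 72 being cycling, endothelial, macrophage or unnamed. Class contrasts used edgeR 4.0.16 in R 4.3.3 with TMM factors, filterByExpr and a library block, on sums of at least 10 cells, and the script was tested on simulated data. DESeq2 1.42.0 was an alternative. Sequences and coordinates came from GENCODE M21 on GRCm38. Named genes were all 7 subunits, up to 5 genes per list with the largest differences among those called in neurons against glia and in OPCs against other glia, and the 3 genes most like each subunit with at least 100 UMIs. Genes that entered a count of 5 or fewer in other comparisons were named after their values were seen, and so were C1ql2, Grin3a and Grin2c. The subunits, lists and naming thresholds were chosen with earlier results of these data known. A few items that these rules would name are not reported here.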

Additional observations from a re-analysis of the deposited data

Results flagged for a closer look

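In barcodes set aside by the mitochondrial filter, 3 ratios lay above the control library with intervals that did not hold 1. Gria1 in barcodes with 30% and over mitochondrially encoded UMIs had 103 CPM of the other UMIs in runner, against 65.6 in control, a ratio of 1.57 (95% counting interval 1.06 to 2.35). In aged it had 103 CPM, against the same 65.6 in control, a ratio of 1.56 (1.06 to 2.35). In those barcodes Gria2 had ratios of 0.73 (0.52 to 1.05) in runner and 0.64 (0.44 to 0.92) in aged. Gria2 in barcodes with 10 to 30% had 561 CPM in aged, against 433 in control, a ratio of 1.30 (1.02 to 1.65), while in that range Gria1 had a ratio of 0.40 (0.16 to 0.88) and Grin2b, with 4 UMIs in aged against 28 in control, a ratio of 0.23 (0.06 to 0.65). Of all genes with at least 20 UMIs over both libraries, the interval lay above 1 for 8.19% in runner and 5.48% in aged at 30% and over, and for 5.91% in aged at 10 to 30%. Below 1 it lay for 6.79% and 6.74% in aged at 30% and over and at 10 to 30%. Each group is 1 library, so no test was made, and the intervals cover counting error only.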

How the results depend on the processing

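No paired analysis was possible because each group is 1 library, and the class contrasts already hold the library as a block. The number of called genes, 1540, 1218, 752, 874 and 1517 for neurons against glia, granule neurons against neuroblasts, Cajal-Retzius cells against other neurons, OPCs against other glia and astrocytes against oligodendrocytes and microglia, became 994, 735, 401, 466 and 868 under 5% mitochondrially encoded UMIs. Without a filter on low counts it was 2557, 2006 and 2667 for neurons, granule neurons and astrocytes, and it was 462 for Cajal-Retzius cells with classes called cell by cell. With the cells of each side summed it was 3886, 599, 1548 and 2419 for neurons, granule neurons, OPCs and astrocytes. Leaving out 1 library gave 784 to 1744, 500 to 1507, 264 to 759, 469 to 817 and 904 to 1626, in each case lowest without the runner library. Without TMM factors the median of all genes moved by 0.36, 0.67 and 0.22 for neurons, OPCs and astrocytes, and the calls split into 1142 higher and 564 lower (732 and 808 with them), 1018 and 114 (465 and 409) and 838 and 620 (709 and 808). DESeq2 split the OPC calls into 470 and 255. The finer clustering gave the same number of calls as the main one in every class comparison, so its values are no separate check. Of 129 alternative values for the subunit differences defined in the class fit, 128 kept direction and call, and Gria1 in Cajal-Retzius cells, summed, was newly called at -1.16. Outside those differences, Grin2a in Cajal-Retzius cells was called in 15 of 16 settings, and in neurons against glia Grin2a was called in 15 and Grin2b in 14 of 16. Between groups, 207 of 219 subunit values moved by less than their counting error, and 2 reversed under 5% mitochondrially encoded UMIs: Gria3 in runner granule neurons at -0.31 and Grin2b in runner astrocytes at -0.10. Gria2 in aged granule neurons, with an interval that held 1, changed sign to -0.41 after thinning. The summed runner value moved to 0.15 with all neuronal cells summed and to 0.19 under 5% mitochondrially encoded UMIs. The cause was not tested. Depth limits the rarer subunits: in 18564 UMIs of aged neuroblasts a gene at 0 may have up to 162 CPM.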

Other observations

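Other glutamate receptor genes with too few UMIs for a test were unevenly spread over the glia. Grin2c, an NMDA subunit known from astrocytes, had 120 CPM in runner and 141 in aged astrocytes, against 104 in control astrocytes, and 0 in the granule neurons of all 3 libraries. Grin3a, an NMDA subunit that lowers calcium entry, had 136 CPM in runner and 52.4 in aged OPCs, against 121 in control OPCs. Grm3, a metabotropic receptor gene, had 74.0 CPM in runner and 89.9 in aged astrocytes, against 80.5 in control astrocytes, and 49.98, 81.1 and 59.5 CPM in runner, aged and control oligodendrocytes. These genes were picked after their values were seen.

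In barcodes with 30% and over mitochondrially encoded UMIs, Camk2a, a kinase gene whose transcript is known from dendrites, had 6868 CPM of the other UMIs in runner and 5211 in aged, against 5681 in control. Under 10% it had 250 CPM in runner and 293 in aged, against 430 in control. Meg3, a noncoding RNA of neuronal nuclei, had 43.7 CPM in runner and 19.3 in aged, against 33.7 in control, at 30% and over, and 602 and 613, against 489, under 10%. A Gria1 UMI was present in 4.06% of runner and 4.52% of aged barcodes, against 2.82% of control barcodes, at 30% and over.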
